A study of Mus musculus with 2 samples.

Results

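Laminins, integrins and the proteins that tie them into the basement membrane were described in the heart of 2 female B6CASTF1/J mice aged 2 months, a hybrid of C57BL/6 and CAST parents. Both animals form 1 group (n = 2), with no treatment named and 1 library of total RNA each, made from 300 ng after reduction of ribosomal RNA and with ERCC spike-ins. The labels do not say which part of the heart was taken, and reads of the CAST alleles were assigned to transcripts of the mm10 assembly, which represents the C57BL/6 genome. The members are all genes with a symbol of the form Lama, Lamb or Lamc plus a digit, or beginning with Itga or Itgb other than Itgb1bp and Itgbl, together with Nid1, Nid2, Hspg2 and Agrn. They numbered 43 of 55536 genes, namely 5 laminin alpha, 3 beta and 3 gamma chains, 18 integrin alpha and 9 integrin beta subunits, 4 linkers, and Itgb3bp. Itgb3bp, which the symbol rule takes in, encodes a centromere protein and no integrin subunit. It had 2.21 TPM in both animals from 71 and 69 reads and was left out of the compositions. It shares 398 exonic bases with Pgm1 on the opposite strand, which had 6436 and 6773 reads, so its level is uncertain.

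A laminin is a heterotrimer of an alpha, a beta and a gamma chain, and laminin networks form the cell-facing layer of basement membranes, the sheets that wrap each cardiomyocyte and underlie the endothelium. Nidogens bridge laminin to type IV collagen, and the heparan sulfate proteoglycans perlecan and agrin tie the sheet to other matrix and to dystroglycan. Integrins are alpha-beta heterodimers that span the plasma membrane, and a subset of them binds laminin and couples the basement membrane to the cytoskeleton of the muscle cell.

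Gene reads totalled 41862417 for animal 1 and 41790009 for animal 2. The members took 118049 reads (0.282%) and 134176 reads (0.321%) of these. Of the 43 members, 42 had reads, 31 had a mean of at least 1 TPM (a level per length and per library), and 28 reached 1 TPM in both animals, as did 12022 of all genes. Cardiomyocyte markers (Myh6, Tnnt2, Actn2, Ryr2 and Tnni3) summed to 15398 TPM for animal 1 and 17342 TPM for animal 2, endothelial markers to 147 and 195 TPM, fibroblast markers to 190 and 248 TPM, and mural markers to 174 and 245 TPM. Epithelial markers summed to 0.82 and 0.83 TPM, with Krt5 at 0 reads in both animals. In tissue samples such as these, fewer cells of a type and less RNA per cell cannot be told apart. TPM values ran lower in animal 1 for genes at large (the median over all tested genes was -0.22 as a log2 ratio of TPM, animal 1 over animal 2), so TPM describe levels and shares here, and the animals were compared on scaled reads. In what follows ± is the SD over both animals.

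Among laminin alpha chains, 3 were above 10 TPM on average. Lama2, the alpha chain of striated muscle basement membrane whose loss causes a congenital muscular dystrophy, had 31.78 TPM in animal 1 and 38.81 TPM in animal 2. Lama5, an alpha chain of many vessel and epithelial basement membranes, had 25.72 and 29.15 TPM. Lama4, a chain of vascular and muscle basement membranes, had 18.94 and 24.36 TPM. Lama2 was the highest of these in both animals. It held 41.3% ± 0.331 of the summed alpha chain TPM, Lama5 32.2% ± 1.44 and Lama4 25.3% ± 1.13. Lama3, the epidermal chain, had 177 and 231 reads (0.48 and 0.82 TPM). Lama1, a chain of embryonic basement membranes, had 91 and 76 reads (0.45 and 0.28 TPM). Neither reached 1 TPM, and both lay below each of the other alpha chains by more than the spread between animals.

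The order of Lama5 and Lama4 depended on the quantification. In the deposited second quantification of the same libraries Lama4 was above Lama5 (24.7 against 18.7 TPM on average), with shares of 33.2% and 25.2%, while Lama2 stayed first at 40.1%. When only protein-coding transcripts of at least 2000 bases were counted, Lama5 and Lama4 had shares of 28.5% and 28.1% in the first quantification and 30.3% and 29.5% in the second. On those long transcripts the ratio of Lama5 to Lama4 TPM was 1.11 in animal 1 and 0.928 in animal 2 in the first quantification, so the animals did not give 1 order.

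Lamb2 was the main beta chain. This gene lies at chr9:108479736-108490530 (plus strand, mm10) and encodes a chain known from neuromuscular synapses, muscle and the kidney filter. It reached 123.55 TPM in animal 1 and 143.31 TPM in animal 2. Its mean of 133 ± 14 TPM ranked 484 among all genes. Lamb1, the widely expressed beta chain, had 18.28 and 25.54 TPM. Lamb3, a partner of Lama3 in skin, had 5.08 and 5.23 TPM. The ranges of the 3 beta chains over both animals did not overlap with each other. Lamb2 made up 83.2% ± 1.26 of the beta chain TPM, Lamb1 13.6% and Lamb3 3.23%.

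The excess of Lamb2 over Lamb1 was present throughout, and its size was not fixed. Lamb2 TPM exceeded Lamb1 TPM 6.76-fold in animal 1 and 5.61-fold in animal 2 in the first quantification, and 5.01-fold and 4.62-fold in the second. Restricted to long protein-coding transcripts, the ratio averaged 3.77 in the first and 3.81 in the second quantification. Beside this stood Lamb2-206, an annotated coding fragment of 345 bases. The first quantification gave it 38.92 TPM in animal 1 and 47.06 TPM in animal 2, or 32.2% ± 0.947 of Lamb2 TPM, from 355 and 386 of the gene's 15204 and 16343 reads. The second quantification gave it 0 reads in both animals. The full-length Lamb2-201, of 5629 bases, had 71.31 and 85.64 TPM in the first quantification and 85.4 and 90.3 TPM in the second.

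Lamc1, the gamma chain shared by most laminins, had 36.21 TPM in animal 1 and 48.65 TPM in animal 2. It made up 90.1% ± 0.0113 of gamma chain TPM. Lamc3, a gamma chain of few tissues, had 37 and 31 reads and did not reach 1 TPM. In the second quantification Lamc1 held 83.6%, and on long protein-coding transcripts it held 94.99% in the first and 94.90% in the second quantification.

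Summed over a class, beta chains had more TPM than alpha chains, and alpha chains more than gamma chains. The sums were 146.91, 77.37 and 40.17 TPM in animal 1 and 174.08, 93.42 and 53.98 TPM in animal 2. Lamb2 alone exceeded the sum of all 5 alpha chains and that of all 3 gamma chains in both animals. The ratio of beta to gamma TPM was 3.44 ± 0.306 in the first quantification and 2.99 ± 0.0538 in the second. With long protein-coding transcripts it was 3.06 ± 0.193 and 2.98 ± 0.216. These are messenger RNA levels, and the assembled trimers were not measured.

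**Figure D1:**
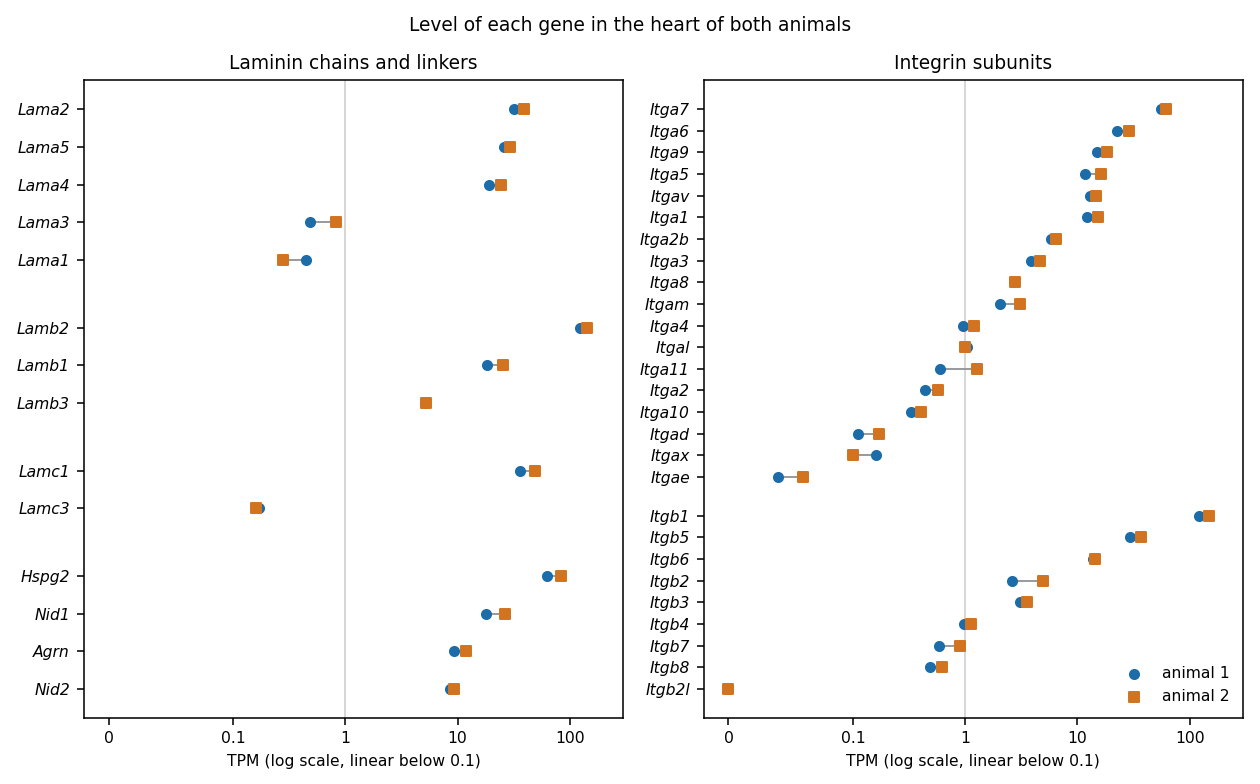
Level of the laminin chains, linkers and integrin subunits reported here, in TPM (horizontal, log scale, linear below 0.1), with a circle for animal 1, a square for animal 2 and a grey line at 1 TPM. Lamb2 and Itgb1 were the highest on either side, at 123.55 and 121.41 TPM in animal 1 and 143.31 and 148.50 TPM in animal 2, and Itgb2l lay at 0 in both.

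The 4 linkers summed to 98.49 TPM in animal 1 and 130.92 TPM in animal 2 (114.7 ± 22.9 TPM). Hspg2, perlecan, was the highest, with 62.64 and 83.46 TPM. Nid1, nidogen-1, had 17.96 and 26.33 TPM. Agrn, agrin, a proteoglycan that binds dystroglycan and clusters acetylcholine receptors at the neuromuscular junction, had 9.37 and 11.81 TPM, and Nid2, nidogen-2, had 8.52 and 9.32 TPM. Hspg2 held 63.7% of the linker TPM, Nid1 19.2%, Agrn 9.27% and Nid2 7.88%. Hspg2 exceeded Nid1 by 3.33 ± 0.225-fold in the first quantification and 2.69 ± 0.218-fold in the second. On long protein-coding transcripts this was 2.63-fold in the first and 2.61-fold in the second. Nid1 exceeded Nid2 by 2.47 ± 0.507-fold in the first and 2.66 ± 0.914-fold in the second quantification, and by 3.06-fold and 3.20-fold on long protein-coding transcripts. Agrn and Nid2 were set apart in both animals in the first quantification, and that order was not kept apart in the second, where they averaged 9.36 and 9.58 TPM. On long protein-coding transcripts of the first quantification Nid2 was above Agrn, with 6.76 against 6.08 TPM in animal 1 and 7.43 against 7.29 TPM in animal 2. On those of the second, Agrn averaged 8.14 TPM and Nid2 7.72 TPM. Nid2 shares 437 exonic bases with Rtraf on the opposite strand, a gene with 1247 and 1216 reads, and whether counting used strand is not given, so some of its reads cannot be told apart from those of Rtraf.

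Agrin is known for small alternative exons near its C-terminal end, the y exon and the z exons. Agrin with the z inserts is made by neurons and clusters acetylcholine receptors, and agrin without them is the form of muscle and other tissues. Of the annotated transcripts, Agrn-203 holds 3 small exons that Agrn-206 lacks. These exons are shown here because they tell the agrin forms apart. They lie on the minus strand of chromosome 4 of mm10, at chr4:156169546-156169557, chr4:156168546-156168569 and chr4:156167777-156167809. All letters are coding, and their lengths are 12, 24 and 33 bases.
Agrn exon of 12 bases: aaatcccgcaag
Agrn exon of 24 bases: cgagctgaccaatgagatcccagc
Agrn exon of 33 bases: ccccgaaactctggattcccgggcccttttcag
Agrn-206, which skips all 3, was the leading Agrn transcript in both quantifications. It held 54.8% ± 0.145 of Agrn TPM in the first (5.15 and 6.46 TPM) and 45.9% ± 5.76 in the second. Agrn-203, the only annotated transcript with the exon of 33 bases, held 8.09% ± 2.58 in the first (0.93 and 0.74 TPM) and 12.7% ± 3.54 in the second. Agrn-203 and Agrn-206, of 7262 and 6891 bases, differ by more than these 3 exons. Their shares therefore do not measure use of the exons alone. The quantifications disagreed on the remaining transcripts. Agrn-205, a retained-intron transcript of 2071 bases, held 33.8% in the first and 3.69% in the second. The coding Agrn-202, which also lacks all 3 exons, held 0.0423% and 28.3%, so Agrn-206 is not the only coding transcript without them. The exon of 24 bases is also in Agrn-205, so transcripts holding it took 41.9% ± 0.612 of Agrn TPM in the first quantification and 16.4% ± 1.68 in the second.

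Among integrin beta subunits Itgb1, the partner of most alpha subunits, was the highest in both animals. The gene lies at chr8:128685654-128733200 (plus strand, mm10). It had 121.41 TPM in animal 1 and 148.50 TPM in animal 2, a mean that ranked 481 among all genes, and 70.6% ± 0.0165 of the beta subunit TPM. Itgb5, a partner of alphav that binds vitronectin, had 29.16 and 36.59 TPM, a share of 17.2%. Itgb6, another partner of alphav and best known from epithelia, had 13.74 and 14.24 TPM, a share of 7.38%. Itgb6 stood at this level while the epithelial markers Epcam, Krt14 and Cdh1 had at most 2 reads in either animal and Krt5 had none. The fifth marker of that list, Krt8, had 52 and 46 reads (0.75 TPM in both animals). Mesothelial markers (Upk3b, Msln, Wt1 and Krt19) summed to 17.9 TPM in animal 1 and 18.7 TPM in animal 2. Which cells carried Itgb6 was not tested. Itgb1, Itgb5 and Itgb6 kept their order in both quantifications, and their ranges over both animals did not overlap with each other.

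The remaining beta subunits were low. Itgb2, the beta subunit of leukocytes, had 2.61 TPM for animal 1 and 4.93 TPM for animal 2, and Itgb3, the beta subunit of platelets and a partner of alphav, had 3.05 and 3.55 TPM, so the order of this pair was not resolved between animals. Itgb4, the partner of alpha6 in hemidesmosomes, had 0.98 and 1.13 TPM. Itgb8, a partner of alphav, had 123 and 135 reads and Itgb7, a lymphocyte subunit, 39 and 55 reads, and their TPM ranges overlapped over animals, with Itgb7 above Itgb8 within each. Itgb2l had 0 reads in both animals, where a count of 0 allows up to 3 reads (0.0717 and 0.0718 CPM).

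The 3 laminin-binding alpha subunits, Itga7, Itga6 and Itga3, held 54.7% ± 1.08 of the alpha subunit TPM. Itga7, which pairs with beta1 as the main laminin-binding integrin of striated muscle, had 55.36 TPM in animal 1 and 61.59 TPM in animal 2. It lies at chr10:128933818-128958282 (plus strand, mm10) and made up 36.2% ± 1.82 of the alpha subunit TPM. Itga6, a laminin receptor of endothelium and epithelium, had 22.73 and 28.94 TPM, and Itga3, a laminin receptor best known from epithelium and kidney, 3.84 and 4.65 TPM. Itga7 exceeded Itga6 by 2.44-fold in animal 1 and 2.13-fold in animal 2.

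The second quantification turned this order round. It gave Itga6 125.8 TPM on average and a share of 46.1%, and Itga7 54.3 TPM and 19.9%. The difference lay in 1 transcript. Itga6-205, a processed transcript of 443 bases, had 98.0 and 88.2 TPM in the second quantification, from 464 and 422 estimated reads. In the first quantification it had 0.94 and 0.25 TPM, from 12 and 3 reads. The effective length by which its reads were divided was 344 bases in the first quantification, and 135 and 134 bases in the second. On long protein-coding transcripts Itga7 had 39.4% and 39.6% and Itga6 12.8% and 12.8% of the alpha subunit TPM in the first and second quantification, and Itga7 exceeded Itga6 by 3.09-fold in both. The laminin-binding group then held 55.4% and 55.6%.

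Alpha subunits of 4 further groups shared the rest. Receptors of the RGD motif (Itga5, Itgav, Itga8 and Itga2b) held 22.5% ± 0.0257, alpha4 and alpha9 together 10.9% ± 0.313, collagen receptors (Itga1, Itga2, Itga10 and Itga11) 9.51% ± 0.605, and leukocyte subunits (Itgal, Itgam, Itgax, Itgad and Itgae) 2.38% ± 0.142. In the second quantification the laminin-binding group had 67.8%, the RGD group 13.96%, alpha4 and alpha9 10.6%, collagen receptors 5.98% and leukocyte subunits 1.63%. Itga9, a receptor of tenascin and other ligands, had 14.81 TPM in animal 1 and 18.42 TPM in animal 2. Itga5, the fibronectin receptor, had 11.64 and 16.12 TPM, Itgav, the alphav subunit, 13.02 and 14.48 TPM, and Itga1, a receptor of collagen and laminin, 12.04 and 15.30 TPM. Itga9 was the highest of these 4 within each animal, although its range over animals overlapped with that of Itga5, and the order of Itga5, Itgav and Itga1 was not resolved. Itga9 also stood above Itga5 in the second quantification, with 27.7 against 17.9 TPM on average.

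Itga2b, the alpha subunit of platelets and megakaryocytes, had 5.83 TPM in animal 1 and 6.37 TPM in animal 2, beside the platelet markers Pf4, Ppbp, Gp9 and Gp1bb, which summed to 56.8 and 60.2 TPM. Itga8, an RGD receptor of smooth muscle and mesenchyme, had 2.71 and 2.76 TPM. Itgam, a subunit of macrophages and neutrophils, had 2.02 and 3.06 TPM and overlapped with Itga8. Itga4, a leukocyte receptor of Vcam1 and fibronectin, had 0.95 and 1.19 TPM and Itgal, the lymphocyte function antigen subunit, 1.04 and 0.99 TPM. They were not apart from each other or from Itga11, a collagen receptor of fibroblasts, with 0.60 and 1.26 TPM from 108 and 189 reads. Of the lowest alpha subunits, the collagen receptors Itga2 and Itga10 had 101 and 100 reads and 50 and 43 reads. The leukocyte subunits Itgax, Itgad and Itgae had 24 and 14, 5 and 4, and 5 and 7 reads. Itgad shares exonic bases with Cox6a2 on the opposite strand, which had 20005 and 20693 reads, and its read assignment spread was above 10%, so its few reads are uncertain.

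**Figure D2:**
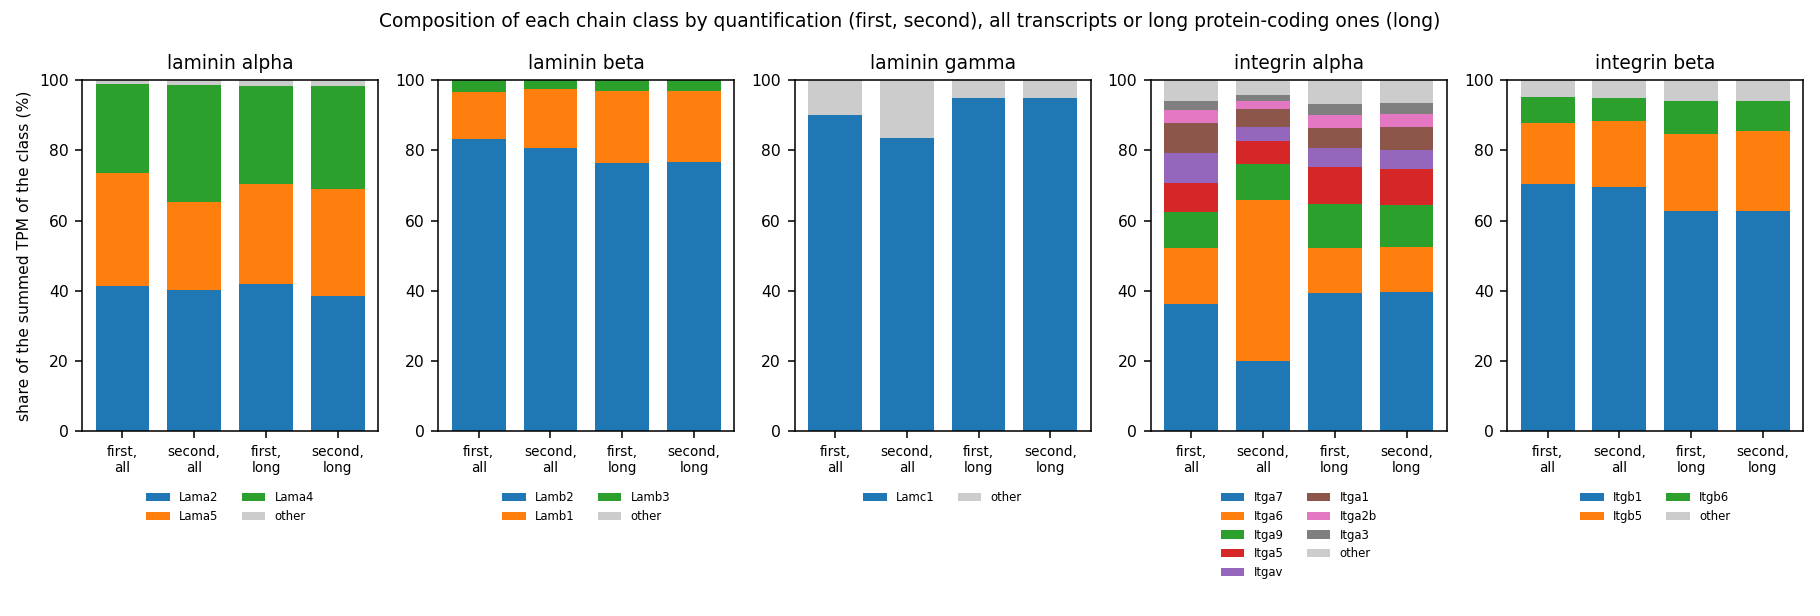
Share of each gene in the summed TPM of its chain class (vertical, percent, mean of both animals) in the first and second quantification, over all transcripts and over protein-coding transcripts of at least 2000 bases. The bars for long transcripts resemble each other in every class, while over all transcripts Itga6 held 15.9% in the first and 46.1% in the second quantification.

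Integrin cytoplasmic tails are spliced in muscle, and the exons involved are shown here because each marks a named variant. The exon of 81 bases of Itgb1, at chr8:128726983-128727063 (plus strand, mm10), encodes the tail of beta1D, the variant of cardiac and skeletal muscle. Its 75 coding bases end at position 128727057 with the stop codon, set in capitals. The exon of 130 bases of Itga6, at chr2:71853534-71853663 (plus strand), encodes the tail of alpha6A, and its 108 coding bases end at position 71853641 with the stop codon. The exon of 113 bases of Itga7, at chr10:128956611-128956723 (plus strand), encodes the tail of alpha7A, known mainly from skeletal muscle. The Itga6 and Itga7 exons begin with the same 12 bases, which are set in capitals.
Itgb1 exon of 81 bases, coding part: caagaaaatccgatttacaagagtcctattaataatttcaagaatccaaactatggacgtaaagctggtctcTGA
Itga6 exon of 130 bases, coding part: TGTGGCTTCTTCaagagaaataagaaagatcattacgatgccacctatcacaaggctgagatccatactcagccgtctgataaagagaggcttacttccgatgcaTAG
Itga7 exon of 113 bases: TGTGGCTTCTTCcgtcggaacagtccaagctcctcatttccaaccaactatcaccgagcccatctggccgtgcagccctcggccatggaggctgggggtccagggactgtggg
The transcript with the beta1D exon had reads in both animals; reads are assigned to a transcript and not to the exon itself. The exon's sole carrier in the annotation, Itgb1-204, is a fragment of 711 bases, and it had 35.21 TPM in animal 1 and 41.88 TPM in animal 2 from 799 and 855 reads. This was 28.6% ± 0.565 of Itgb1 TPM in the first quantification, and 31.2% ± 0.166 in the second. The full-length Itgb1-201, which lacks the exon, held 69.7% ± 1.65 and 67.9% ± 1.11. Reads from the upstream part of a full-length beta1D messenger have no transcript with this exon to go to, so the share of beta1D among full-length Itgb1 messengers cannot be read from these values.

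The alpha6A exon belongs to the leading protein-coding Itga6 transcript of the first quantification. Itga6-201, its only carrier, had 10.14 TPM in animal 1 and 12.79 TPM in animal 2 in the first quantification and 9.02 and 9.30 TPM in the second. Itga6-202, which skips it and so encodes alpha6B, had 2.40 and 4.16 TPM in the first and 6.5 and 9.36 TPM in the second. Itga6-201 was above Itga6-202 in both animals in the first quantification, and in the second only in animal 1. As shares of Itga6 TPM, Itga6-201 held 44.4% ± 0.297 and 7.29% ± 0.295 in the first and second quantification, and Itga6-205 held 74.0% ± 4.16 in the second. The long processed transcript Itga6-203 held 38.2% and 9.16%.

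The quantifications disagreed on the alpha7A exon. Its only carrier is Itga7-204, a coding fragment of 984 bases. In the first quantification Itga7-204 had 12.71 TPM in animal 1 and 11.12 TPM in animal 2, from 417 and 328 reads. This was 20.5% ± 3.47 of Itga7 TPM. The second quantification gave this fragment 9 and 0 estimated reads, a share of 0.378%. As for beta1D, the share of alpha7A among full-length Itga7 messengers cannot be read from these values. A further pair of Itga7 exons, mutually exclusive and in the extracellular part, separates the full-length transcripts. They lie at chr10:128941822-128941941 and chr10:128941445-128941576 (plus strand, mm10), and all their letters are coding.
Itga7-201 exon of 120 bases: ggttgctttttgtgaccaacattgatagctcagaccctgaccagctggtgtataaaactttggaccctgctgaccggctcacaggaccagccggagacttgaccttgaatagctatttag
Itga7-202 exon of 132 bases: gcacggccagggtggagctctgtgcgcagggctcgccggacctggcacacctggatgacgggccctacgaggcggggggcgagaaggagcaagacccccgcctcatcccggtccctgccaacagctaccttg
The carrier of the exon of 120 bases was the higher of the pair in both animals and both quantifications. This transcript, Itga7-201, had 35.46 and 41.79 TPM and held 66.0% ± 2.69 in the first quantification and 81.6% ± 0.199 in the second. Itga7-202, with the exon of 132 bases, had 6.45 and 8.24 TPM, with shares of 12.5% ± 1.22 and 16.5% ± 0.747.

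**Figure D3:**
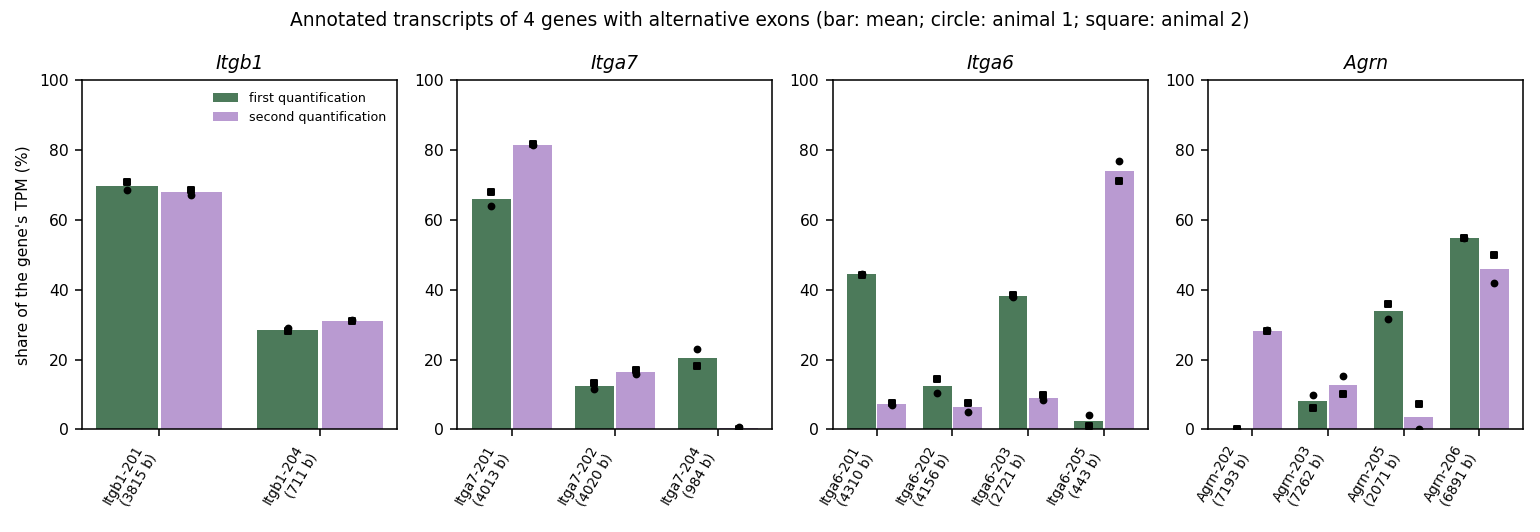
Share of each annotated transcript in the TPM of its gene (vertical, percent) for Itgb1, Itga7, Itga6 and Agrn, with bars for the mean, circles for animal 1 and squares for animal 2, in the first and second quantification. Itgb1-204 with the beta1D exon stood at 28.6% and 31.2%, while Itga7-204 and Itga6-205 differed widely between the quantifications.

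Of the 21 members with a mean of at least 5 TPM, 18 had the same leading transcript in both quantifications, and the median share of the leading transcript was 64.0% in the first and 74.1% in the second. The exceptions were Itga6, Hspg2 and Lamb3. For Hspg2 the near-identical coding transcripts Hspg2-203 and Hspg2-201 of 14176 and 14187 bases held 39.8% and 38.1% in the first and 47.9% and 48.4% in the second quantification, and the short Hspg2-202 held 22.05% and 3.64%. For Lamb3 the non-coding Lamb3-207 of 355 bases led in the first (38.1%, against 33.8% for Lamb3-209 and 28.1% for Lamb3-202), and the coding Lamb3-209 in the second (76.2%, against 22.5% for Lamb3-202 and 0% for Lamb3-207). Nid1 and Lamb1 came close to 1 transcript each, with 98.5% and 99.2% for Nid1-201 and 95.4% and 95.5% for Lamb1-201. Itga5-201 held 90.8% and 80.3%, beside Itga5-204 with 3.76% and 19.0%.

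Short or intron-retaining entries took part of the TPM of several laminin chains. Lama2-201, the full-length transcript, held 50.8% ± 0.156 in the first quantification and 74.1% ± 0.0188 in the second. Beside it the retained-intron transcripts Lama2-204, Lama2-206 and Lama2-202 held 19.1%, 12.1% and 1.79% in the first and 5.39%, 3.55% and 12.6% in the second, and the coding fragment Lama2-208 held 12.1% and 1.83%. Lama5-201 held 57.7% ± 2.53 and 96.4% ± 5.06, and the short non-coding Lama5-203 and Lama5-204 held 22.7% and 12.5% in the first quantification and 0% in the second. Lama4-201 was steadier, with 72.5% ± 0.416 and 71.2% ± 1.59, next to the retained-intron Lama4-207 with 23.1% and 25.6%. Lamc1-201 held 75.7% and 90.8%, Lamc1-204 10.8% and 0%, and Lamc1-205 12.0% and 8.00%. Lamb2-204, of 332 bases, held 0% and 10.7%. The full-length coding transcript led in each of these genes in both quantifications.

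Among the other integrins and Nid2 the leading transcript was also shared. Itgb5-202 held 64.0% and 33.8%, Itgb5-207 27.0% and 33.1% and Itgb5-201 8.99% and 23.8% in the first and second quantification, so the lead of Itgb5-202 in the second was within the spread. Itgb6-202 held 51.0% ± 3.94 and 62.6% ± 3.84, and Itgb6-201 46.2% ± 3.87 and 34.9% ± 4.67. Itgav-201 held 45.8% and 67.5%, with the coding fragments Itgav-205 at 25.8% and 1.19% and Itgav-206 at 22.4% and 23.8%. Itga1-201 held 49.2% and 60.8% and the retained-intron Itga1-206 43.6% and 31.7%. Itga9-201 held 87.7% and 58.2%, with the short Itga9-204 at 10.8% and 25.7%. Itga2b-201 held 69.7% and 81.8% and Itga2b-207 27.1% and 16.7%. Nid2-201 held 79.5% and 81.5% and Nid2-202 15.0% and 13.2%.

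At the level of the gene the quantifications lay closer. For the 31 members with a mean of at least 1 TPM the first quantification over the second had a median of 0.892-fold, and 4 were outside 1.5-fold in either direction, all lower in the first. They included Itga6 (0.205-fold), Itga9 (0.601-fold) and Itgb3bp (0.619-fold). Lama5 (1.47-fold) and Lamb3 (1.4-fold) were the members most above the second quantification.

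**Figure D4:**
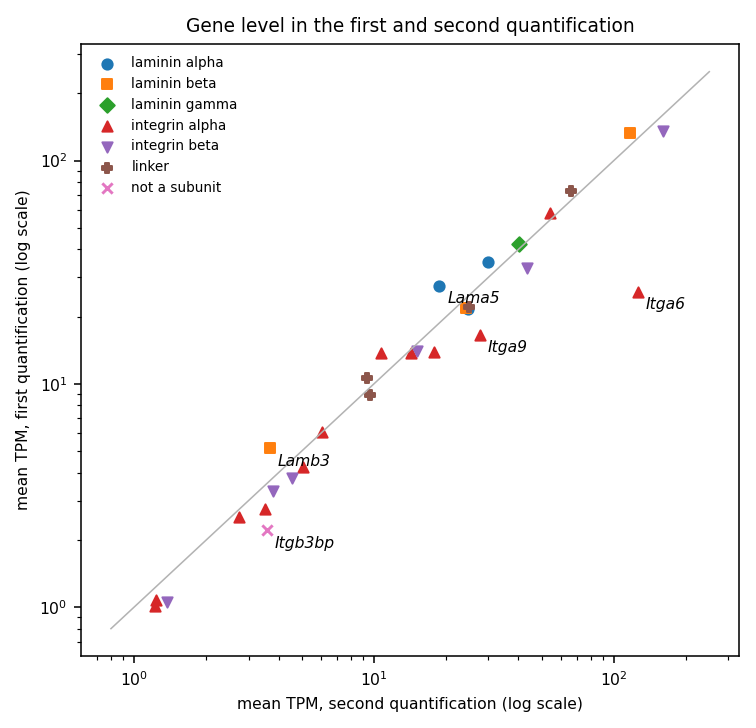
Mean level of the reported members of at least 1 TPM in the first quantification (vertical, TPM, log scale) against the second (horizontal, TPM, log scale), with marker shapes for the classes and a grey line of equality. Itga6 lies far below the line, at 25.8 TPM in the first and 125.8 TPM in the second quantification.

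For the comparison of animal 1 with animal 2, the reads of each gene entered an exact binomial test (two-sided) against TMM-scaled library sizes, where TMM is a trimmed mean of log ratios. Benjamini-Hochberg adjustment ran over all 16133 genes with at least 20 reads. The test sets 2 libraries side by side, has no replicate check and sees counting error alone. Of the 40 members tested, 15 passed at an adjusted p of 0.05 (37.5%), where 11.3% of all tested genes did, and none passed with a minimum of 2-fold, where 1.39% of all tested genes did. Depth matters for such a count. Of the 23 members with at least 1000 reads 11 passed (47.8%), against 18% of all genes with as many. Higher reads, here and for the gene lists below, are higher after scaling. They were found in animal 2 for 13 of the 40 members (all tested genes 6.6%), and in animal 1 for 2 (all tested genes 4.75%). The ratio of animal 1 over animal 2 was below 1 for 26 of 40 members and for 49.3% of all tested genes, and the median log2 ratio was -0.05 for members and 0.00 for all tested genes.

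Several genes of the basement membrane itself had fewer reads in animal 1. Hspg2 was counted at 25850 reads in animal 1 and 31037 in animal 2, a scaled ratio of 0.878 (exact 95% interval 0.864 to 0.893, adjusted p = 3.25e-51). Nid1 had 3967 and 5239 reads, a ratio of 0.799 (exact interval 0.766 to 0.832, adjusted p = 9.46e-25). Lamc1 had 7904 and 9690 reads, a ratio of 0.860 (exact interval 0.835 to 0.886, adjusted p = 2.71e-21). Lamb1, with 3754 and 4694 reads, had a ratio of 0.844 (exact interval 0.808 to 0.881, adjusted p = 4.45e-13), and Lama4, with 3168 and 3657 reads, one of 0.914 (exact interval 0.871 to 0.958, adjusted p = 3.16e-03). Lama5 went the other way, with 6609 and 6360 reads and a ratio of 1.10 (exact interval 1.06 to 1.13, adjusted p = 5.45e-06), and it did not pass when libraries were scaled by total reads. Lama2 (ratio 0.958, adjusted p = 0.0745 in the exact test), Lamb2 (0.981), Agrn (0.980) and Nid2 (0.975) did not pass, although Lama2 and Lamb2 were called in another setting.

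The integrins with the lowest ratios that passed were Itga11, Itgam, Itgb2 and Itga4. Itgam was counted at 263 reads in animal 1 and 450 in animal 2, a ratio of 0.616 (exact interval 0.527 to 0.719, adjusted p = 1.14e-08), and its partner Itgb2 had 277 and 469 reads, a ratio of 0.623 (exact interval 0.535 to 0.724, adjusted p = 1.11e-08). Itga11 had a ratio of 0.603 (exact interval 0.471 to 0.767, adjusted p = 4.24e-04). Other collagen and leukocyte subunits did not pass, with ratios of 0.976 for Itga1, 1.07 for Itga2, 1.23 for Itga10, 1.19 for Itgal, 1.81 for Itgax and 0.748 for Itgb7. Those of Itga10, Itgax and Itgb7 rest on few reads, with exact intervals of 0.799 to 1.89, 0.898 to 3.78 and 0.483 to 1.15. Itga4, with 195 and 283 reads, had a ratio of 0.727 (exact test, adjusted p = 8.03e-03), which did not pass in the second quantification. The abundant subunits shifted by less. Itgb1 had a ratio of 0.936 (exact test, adjusted p = 3.16e-06), Itga5 of 0.865 (adjusted p = 1.85e-04, exact test), Itga6 of 0.893 (adjusted p = 1.92e-04, exact test) and Itgb5 of 0.925 (adjusted p = 0.0189, exact test). Itgb6 was higher in animal 1, with 1905 and 1832 reads and a ratio of 1.10 (exact test, adjusted p = 0.0446), a call lost under total reads, with no read minimum and in the second quantification. Itga7, with 6548 and 6895 reads, had a ratio of 1.00 (exact interval 0.968 to 1.04) and did not pass, although it was called in another setting.

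**Figure D5:**
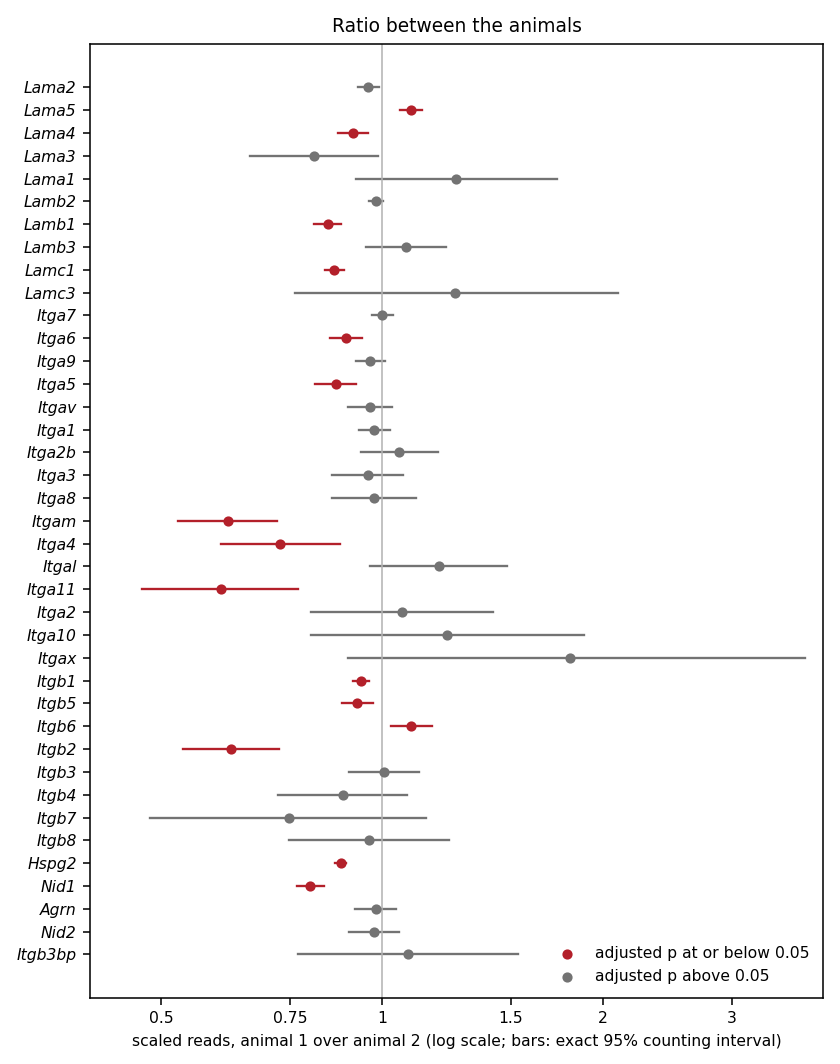
Ratio of scaled reads, animal 1 over animal 2 (horizontal, log scale), of the members tested and reported here, with exact 95% counting intervals and red for those with an adjusted p at or below 0.05. The red points of Lama5 and Itgb6 lie right of 1 and the other 13 lie left, down to 0.603 for Itga11.

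Markers of several cell types, though not of all, differed between the animals. Of all tested genes 6.6% passed with higher reads in animal 2 and 4.75% with higher reads in animal 1. Of all genes with at least 1000 reads 18% passed in either direction. Of the marker genes tested, 5 of 6 endothelial, 6 of 6 mural, 3 of 5 fibroblast and 2 of 5 macrophage genes passed with higher reads in animal 2 and none with higher reads in animal 1. Of the cardiomyocyte markers 3 of 5 passed with higher scaled reads in animal 1 and none with higher scaled reads in animal 2. The ratios of these 3 were 1.05 for Myh6, 1.05 for Ryr2 and 1.02 for Tnnt2. Before scaling none of them had more reads in animal 1, so their direction came from the TMM scaling. Unscaled reads were 1028905 and 1029462 for Myh6, 183859 and 184019 for Ryr2, and 112781 and 116358 for Tnnt2. The platelet list had 1 gene of 4 (Ppbp, ratio 1.27) with higher reads in animal 1 and none with higher reads in animal 2, and none of the 4 mesothelial and 3 Schwann cell markers tested passed. Macrophage markers summed to 52.6 TPM in animal 1 and 70.4 TPM in animal 2. Their part in the ratios of the members was not tested.

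Other basement membrane genes were taken from lists. Their counts stand beside 6.6% of all tested genes that passed with higher reads in animal 2 and 4.75% with higher reads in animal 1. Depth matters for these lists and for the adaptors and ligands below. Of all genes with at least 1000 reads, 18% passed in either direction. Of 8 basement membrane collagens, all tested, 4 passed with higher reads in animal 2 and none with higher reads in animal 1 (median log2 ratio -0.21). The highest were Col4a1 with 93.07 TPM in animal 1 and 136.85 TPM in animal 2, Col4a2 with 54.62 and 75.75 TPM, and Col15a1 with 25.36 and 38 TPM. All 3 passed, with ratios of 0.799, 0.841 and 0.797, beside 0.799 for Nid1. Of 15 other laminin and basement membrane partners 4 passed with higher reads in animal 2 and 1 with higher reads in animal 1 (median log2 ratio -0.07). Sparc, a collagen-binding matricellular protein, had 125.79 and 184.92 TPM. Dag1, dystroglycan, the main laminin receptor beside the integrins, had 114.77 and 134.27 TPM, and Bcam, a receptor of laminin alpha5, 69.93 and 83.71 TPM. Of these 3 only Sparc passed (ratio 0.802). Dag1 had a ratio of 0.999, next to 1.00 for Itga7.

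Of 17 integrin adaptors 16 were tested, and 7 passed with higher reads in animal 2 (all tested genes 6.6%). Only Itgb1bp2 passed with higher reads in animal 1 (all tested genes 4.75%), and the median log2 ratio was -0.10. Fermt2, kindlin-2, which activates integrins, had 89.83 TPM in animal 1 and 100.98 TPM in animal 2. Itgb1bp2, melusin, a muscle protein that binds the beta1 tail, had 63.27 and 68.86 TPM, and Lims1, a partner of the integrin-linked kinase, 51.31 and 63.47 TPM. Of 12 other integrin ligands 11 were tested and 7 passed, all with higher reads in animal 2 (all tested genes 6.6%, median log2 ratio of the ligands -0.24). The highest were Col3a1 with 56.13 and 80.37 TPM, Mfge8 with 40.14 and 53.55 TPM and Col1a1 with 24.02 and 36.23 TPM. Fn1, fibronectin, the ligand of Itga5, had 17.02 and 42.16 TPM and a ratio of 0.463, chosen here after its value was seen, against 0.865 for Itga5.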

How the data were processed

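Heart RNA of 2 animals of 1 group was analysed. With no second group, levels were described and the 2 libraries set side by side. Expected counts (estimated reads of a feature, not normalised) and TPM of the gene and first transcript tables were made by the authors, per the file headers in RSEM's layout, and derive from transcriptome alignments according to the deposited readme. The second transcript table, in kallisto's layout per the file headers, gives the authors' estimated counts and TPM from the read file. The deposited tables also give a posterior standard deviation of each count, the assignment spread. Aligner, counter, versions and the use of strand in counting were not given in the sources used here. Effective lengths differ between the quantifications, and so do the reads assigned to short transcripts, and TPM depends on both. In animal 1 Itga7-204 had 417 reads over an effective length of 885 bases in the first quantification. It had 9 reads over 658 bases in the second.

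Gene symbols and transcript types were taken from the second table. Coordinates and exon sequences are those of GENCODE M21 (mm10), matched on identifiers for all 55536 genes. Numbered entries that name no gene held 4 and 2 reads (9.5e-06% and 4.8e-06%) and were left out. Expected counts were rounded. TMM factors came from edgeR 4.0.16 in R 4.3.3, and exact tests and intervals from scipy 1.17.1, checked on simulated data. Log2 ratios used a prior count of 0.5. Without molecular identifiers on the reads, intervals and floors cover counting error only, and the ordinary spread between animals is not part of the test.

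Members and lists were chosen with earlier results of these data known. Every member was named, other than 1 that is not reported here (nor is 1 marker list), with TPM where its mean was at least 1 TPM and otherwise with reads. Transcripts were named where a member with a mean of at least 5 TPM had one with a share of at least 10% in either quantification, and list genes for the 3 highest levels. Marker lists for mesothelial cells summed to 17.9 and 18.7 TPM and for Schwann cells to 2.42 and 2.84 TPM. Of the members, 12 share exonic bases with a gene on the opposite strand and 4 with one on the same strand.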

Additional observations from a re-analysis of the deposited data

How the results depend on the processing

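The leading member of every class was the same under all alternatives, except among integrin alpha subunits, where Itga6 led in the second quantification. Shares in the second quantification, by reads in place of TPM, and on long protein-coding transcripts of the first and of the second quantification (both chosen after seeing the data) were 40.1%, 41.5%, 41.8% and 38.6% for Lama2, 80.7%, 77.0%, 76.5% and 76.6% for Lamb2, 83.6%, 96.4%, 94.99% and 94.90% for Lamc1, 19.9%, 29.2%, 39.4% and 39.6% for Itga7, and 69.5%, 66.7%, 62.9% and 62.7% for Itgb1. Linkers summed to 110 TPM in the second quantification and to 92.6 and 104 TPM on long transcripts, and their sum in reads was not run, since reads are not on the TPM scale. Leaving out either animal gave 41.1% to 41.5% for Lama2, 82.3% to 84.1% for Lamb2, 90.13% to 90.14% for Lamc1, 34.9% to 37.5% for Itga7, 70.56% to 70.58% for Itgb1, 98.49 to 130.92 TPM for linkers, 29 to 31 members at 1 TPM, and 60.4% to 67.6% for the median leading transcript share, which was 74.1% in the second quantification. Members that differed between animals numbered 15 of 40 with DESeq2 size factors (all tested genes 11.4%), 20 of 40 with total reads (all higher in animal 2, all tested genes 20.9%), 14 of 42 with no read minimum (6.78%), 13 of 40 in the second quantification (11.1%) and 0 with a 2-fold minimum, and 12 of the 15 kept call and direction in every setting without that minimum. A further 7 members, Itga1, Itga7, Itga9, Itgav, Lama2, Lama3 and Lamb2, were called only in a setting other than the main one. The members' median log2 ratio was -0.13 with total reads, where that of all tested genes was -0.08. No paired analysis was possible because there is 1 group. Depth limits the members under 1 TPM, whose intervals are wide.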
